A study of Homo sapiens with 12 samples.

Results

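The microRNA-223 hairpin gives 2 mature strands, miR-223-5p and miR-223-3p (hsa-miR-223-5p and hsa-miR-223-3p in the files), and both were present in each of the 2 deposited tables of small-RNA sequencing from K562 cells, among 952 microRNAs listed in either table. The strands were taken by name, with earlier results of these data known. K562 is an established suspension line from a human erythroleukaemia. There were 12 libraries in 4 groups of 3, which the labels call biological triplicates: ZSWIM8 KO cells, labelled ZSWIM8-/- and given no guide RNA, against WT cells, also given none, and sgCYRANO cells, which received a guide RNA targeting CYRANO, against sgNT cells, which received a guide labelled NT. ZSWIM8 is the substrate receptor of a ubiquitin ligase, and CYRANO is a long non-coding RNA whose extensive pairing to miR-7 leads to loss of that microRNA. Whether the ZSWIM8 KO line is 1 clone, and how the guides acted on their targets, is not stated in the labels. Both comparisons bear on target-directed microRNA decay, in which an extensively paired target RNA leads to loss of the microRNA.

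A microRNA hairpin is cut into a duplex of its 5p and 3p strands, of which 1 is usually kept in an Argonaute protein and guides it to target RNAs, while the other is usually lost. Transcription and cutting of the hairpin act on both strands, whereas decay of a loaded strand acts on that strand. miR-223 is known as a microRNA of the myeloid lineage, abundant in granulocytes and monocytes, where it is driven by the factors C/EBP alpha and PU.1 and restrains granulocyte activation in mice. Most of its described targets, among them NFIA, MEF2C and NLRP3, are assigned to the 3p strand, and the 5p strand carried the older name miR-223*.

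The sequences show how the strands are laid out in the hairpin and that the reads of each can be told from those of the other. They were taken from RefSeq (GRCh38.p14), which matched both strands by name. The hairpin lies at chrX:66018870-66018979 on the + strand, within an exon of the non-coding host gene (MIR223HG in RefSeq, AL034397.3 in GENCODE release 29). Toward higher coordinates, the nearest hairpin found with a tested strand is 4.0 Mb away. Only 865 of the 952 microRNAs in either table had a mature RefSeq sequence, so a nearer hairpin on either side may have been missed. Capitals mark the 5p strand, at bases 26 to 47, and the 3p strand, at bases 68 to 89.
MIR223 hairpin: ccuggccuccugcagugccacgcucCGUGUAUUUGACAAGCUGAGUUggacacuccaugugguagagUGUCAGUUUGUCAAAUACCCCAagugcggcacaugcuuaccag
In the mature strands the capitals mark the seed, bases 2 to 8, which pairs with targets.
miR-223-5p: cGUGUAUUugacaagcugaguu
miR-223-3p: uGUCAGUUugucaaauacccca
Both strands are 22 bases long with 9 G or C bases each, and each sequence occurs in 1 human hairpin of that RefSeq table. In the predicted fold of the hairpin (ViennaRNA), 15 base pairs joined both strands. The seeds differ from each other, and 0 other human mature microRNAs in the RefSeq table share either one. Bases 2 to 7 of miR-223-3p are shared with miR-4697-3p, which was in neither deposited table.

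Values here are group means in counts per 1000000 reads (CPM), recovered from the mean log2 CPM and the log2 fold change of the authors' deposited tables. Single libraries are not in those tables, so the spread between them is known only through the deposited test. The recovered library totals ran from 860000 to 2490000 reads, and each group mean of a miR-223 strand corresponded to between about 3210 and about 14700 reads. The table headers do not name the numerator of the fold changes. They were read as ZSWIM8 KO over WT and sgCYRANO over sgNT, the reading under which miR-7-5p, the microRNA that CYRANO destroys, is higher in both. In the authors' deposited tables its log2 fold change was 2.35 ± 0.14 in ZSWIM8 KO over WT and 2.52 ± 0.09 in sgCYRANO over sgNT. Read the other way, the means in each comparison would swap groups. The value after ± is a standard error derived from the deposited p-value.

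The 5p strand was the more abundant strand of the hairpin in all 4 groups. hsa-miR-223-5p had 2080 CPM in ZSWIM8 KO and 2712 CPM in WT, and 2486 CPM in sgCYRANO and 2037 CPM in sgNT. hsa-miR-223-3p had 1039 CPM in ZSWIM8 KO and 844.3 CPM in WT, and 913.5 CPM in sgCYRANO and 926.1 CPM in sgNT. The strands are of equal length, and the 5p level was 2.0 times the 3p level in ZSWIM8 KO, 3.21 times in WT, 2.72 times in sgCYRANO and 2.20 times in sgNT. How evenly the library kit captures both strands was not tested. By group mean miR-223-5p ranked 40th of 868 microRNAs in ZSWIM8 KO and 28th in WT, and 33rd of 837 in sgCYRANO and 37th in sgNT. The rank of miR-223-3p lay between 54 and 57 in all 4 groups.

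**Figure D1:**
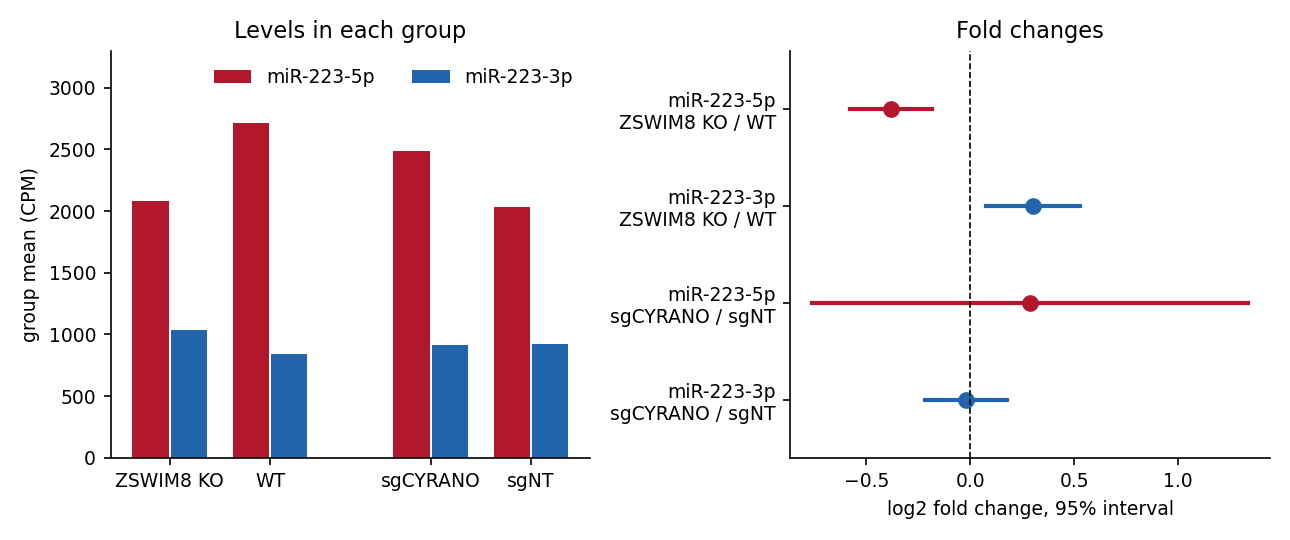
Left, group mean of miR-223-5p (red) and miR-223-3p (blue) in CPM, 1 bar per strand and group. Right, log2 fold change of each strand (point) with its 95% interval (line) from the deposited F and its implied degrees of freedom. The 5p bars exceed the 3p bars in all 4 groups, and the 5p interval in sgCYRANO over sgNT is the widest. In ZSWIM8 KO over WT the intervals of both strands, which are unadjusted, lie on opposite sides of 0. The 3p strand did not pass there (deposited test, adjusted p = 0.0779).

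Loss of ZSWIM8 was compared with WT to ask whether either strand depends on this decay pathway. The strands had log2 fold changes of opposite sign, of which the 5p one passed the test. miR-223-5p fell to 2080 CPM in ZSWIM8 KO, against 2712 CPM in WT, which is 0.767-fold. In the authors' deposited table its log2 fold change was -0.38 ± 0.10, with a 95% interval from -0.58 to -0.18 and an adjusted p of 0.00353. miR-223-3p had 1039 CPM in ZSWIM8 KO and 844.3 CPM in WT, which is 1.23-fold. In the authors' deposited table its log2 fold change was 0.30 ± 0.12 (adjusted p = 0.0779), with an unadjusted 95% interval from 0.07 to 0.53, so it did not pass an adjusted p of 0.05. Its unadjusted p was 0.00942.

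These calls were made among many. Of the 868 microRNAs tested in ZSWIM8 KO over WT, 86 passed an adjusted p of 0.05, or 9.91%. The higher calls numbered 41, or 4.72%, and the lower ones, to which miR-223-5p belongs, 45, or 5.18%. An unadjusted p under 0.05, which both strands had, was found for 172, or 19.8%. miR-223-5p had the 49th smallest p-value of the table and miR-223-3p the 105th. Among the 30 microRNAs nearest to miR-223-5p in abundance, 14 passed and 7 had a larger log2 fold change in either direction. Among the 30 nearest to miR-223-3p, 13 passed and 18 had a larger one. Both log2 fold changes were therefore within what strands of like abundance showed in this comparison.

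Over the 304 microRNAs at 10 CPM or more the median log2 fold change was 0.13 in this comparison. Relative to that median, miR-223-5p was at -0.51 and miR-223-3p at 0.17, with 95% intervals from -0.71 to -0.31 and from -0.05 to 0.40. The opposite signs held, but the 3p interval then included 0 (adjusted p = 0.464). The calls over all microRNAs became 30 higher and 62 lower. The 5p call rests on a variance shared between microRNAs. With F read on the 4 degrees of freedom that 6 libraries in 2 groups leave, the adjusted p of miR-223-5p was 0.323, and 3 microRNAs of the table passed.

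The strands of 1 hairpin were then set against each other, since both come from the same precursor. The cause of a difference between them was not tested. miR-223-5p changed by -0.68 ± 0.15 more than miR-223-3p on the log2 scale in ZSWIM8 KO over WT (normal test on the 2 log2 fold changes, adjusted p = 0.00169 over 188 hairpins with both arms in the table). The share of the 3p strand in the hairpin's reads was 33.3% in ZSWIM8 KO and 23.7% in WT, a difference of 9.58 percentage points. The Wilson 95% intervals, which cover counting error only and use the recovered totals, were 32.7% to 33.9% in ZSWIM8 KO and 23.1% to 24.5% in WT. The sum of both strands was 3120 CPM in ZSWIM8 KO and 3556 CPM in WT, which is 0.877-fold, so the split between the strands moved by more than their sum. The test treats the errors of both strands as independent, which the tables do not allow to be checked. With errors on 4 degrees of freedom per strand, an alternative added after the data were seen, the adjusted p was 0.201 and the unadjusted p 0.00212.

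An arm difference passed in 7 of 188 hairpins, or 3.72%. Of these 7, the strands had opposite signs in 4, namely miR-223, miR-671, miR-130b and miR-148a. In miR-148a and miR-130b the 3p strand rose, with log2 fold changes of 0.43 and 0.56 in the authors' deposited table. The 5p strands stood at -0.16 and -0.13, without passing. In miR-671 both strands passed, the 5p strand higher (0.68) and the 3p strand lower (-0.45) in the authors' deposited table. The remaining 3 were miR-25, miR-1307 and miR-32, whose strands shared a sign. With both strands at 100 CPM or more, the arm difference of miR-223 was the third in size of 25 hairpins, and the median over these hairpins was 0.29 in either direction. With both strands at 10 CPM or more it ranked 9 of 64, beside a median of 0.31. In sgCYRANO over sgNT, where 0 arm differences passed, that of miR-223 ranked 2 of 26 at 100 CPM or more. A high rank in size was thus seen in both comparisons. In sgCYRANO over sgNT it belonged to an arm difference of 0.31 ± 0.43 (normal test, adjusted p = 0.966). That value had the opposite sign and a wide error, so its rank says little.

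Hairpins in which both strands passed, which miR-223 is not among, mostly had strands of the same sign. With both strands at 10 CPM or more there were 5, and in 4 of them the strands moved the same way: miR-25 and miR-21 lower, miR-1307 and miR-574 higher. The fifth was miR-671. The contrast is one of sign, since the arm difference passed in miR-25, miR-1307 and miR-671 as in miR-223. In miR-21 and miR-574 it did not pass. Opposite signs as such were common, found in 18 of 64 hairpins with both strands at 10 CPM or more. miR-142 is another hairpin of blood cells, and its strands stand among the neighbours of the miR-223 strands in level in this table. Its strands had 946.7 CPM (5p) and 2331 CPM (3p) in ZSWIM8 KO, and 901.0 CPM (5p) and 2778 CPM (3p) in WT. Its arm difference was 0.32 ± 0.15 (normal test, adjusted p = 0.412) and did not pass.

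**Figure D2:**
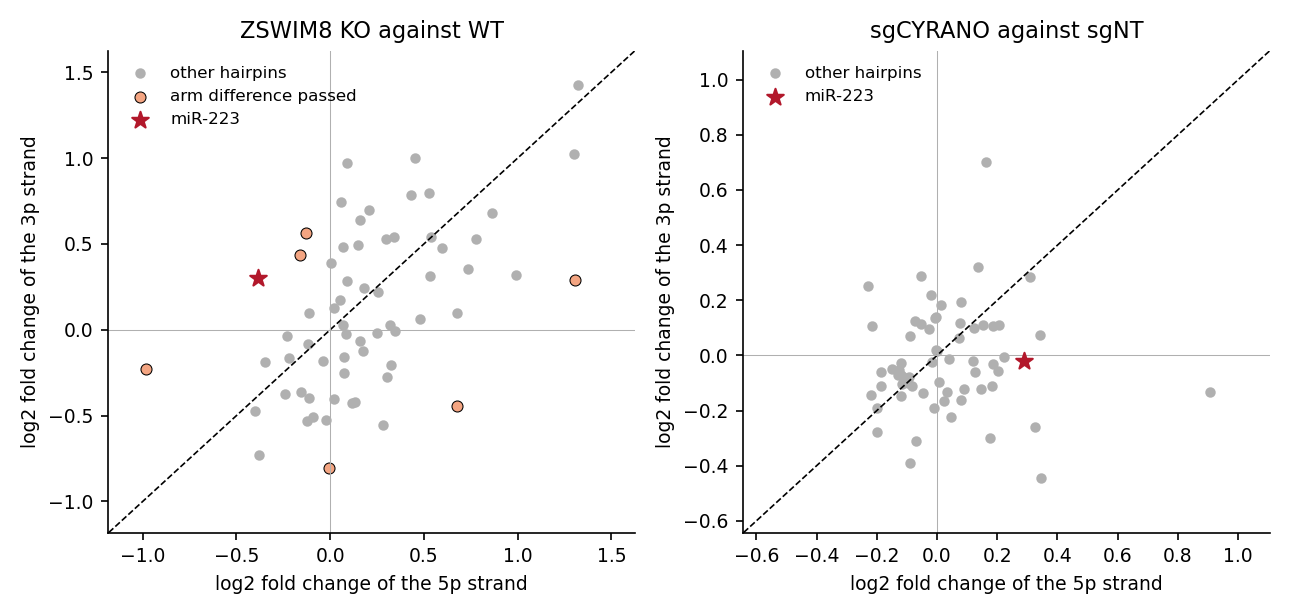
Log2 fold change of the 3p strand against that of the 5p strand for hairpins with both strands at 10 CPM or more, 64 in each comparison. The star is miR-223, orange points are other hairpins whose arm difference passed, and the dashed line marks equal change of both strands. In ZSWIM8 KO over WT the star lies left of 0 and above 0, at -0.38 and 0.30.

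Cells given the guide against CYRANO were compared with those given the guide labelled NT. Neither strand passed. miR-223-5p had 2486 CPM in sgCYRANO and 2037 CPM in sgNT, which is 1.22-fold. In the authors' deposited table its log2 fold change was 0.29 ± 0.42 (adjusted p = 0.984). miR-223-3p had 913.5 CPM in sgCYRANO and 926.1 CPM in sgNT, and the authors' deposited table gave a log2 fold change of -0.02 ± 0.10 (adjusted p = 0.993). In the table as a whole 1 of 837 microRNAs passed, or 0.119%, and that microRNA was miR-7-5p. An unadjusted p under 0.05 was found for 49, or 5.85%, with neither miR-223 strand among them.

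The bounds on both strands differed widely. For miR-223-3p the 95% interval of the log2 fold change ran from -0.22 to 0.18, or 0.861-fold to 1.13-fold. For miR-223-5p it ran from -0.76 to 1.34, or 0.590-fold to 2.52-fold, although this strand was the more abundant. The standard error of miR-223-5p from the deposited F was 0.38, which is 4.04 times the median of the 30 microRNAs nearest in abundance, and 0 of these 30 had a larger one. For miR-223-3p in the same table the ratio was 0.990. In the ZSWIM8 KO table the ratios were 0.985 for miR-223-5p and 0.944 for miR-223-3p.

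Together, a deposited F and its p fix the denominator degrees of freedom of the test. For miR-223-5p in the sgCYRANO table they were 4.0, so its test used the variance of this strand's own 6 libraries. For miR-223-3p they were 3348, the most common value among the 142 microRNAs at 100 CPM or more, at which the variance is almost wholly shared between microRNAs. The error of miR-223-5p corresponded to a standard deviation between libraries of 0.46 on the log2 scale, or 1.38-fold. The error of miR-223-3p corresponded to 0.12, or 1.09-fold, a value set mainly by the other microRNAs. Which library or which group of the 6 carried the spread of miR-223-5p cannot be read from the table.

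**Figure D3:**
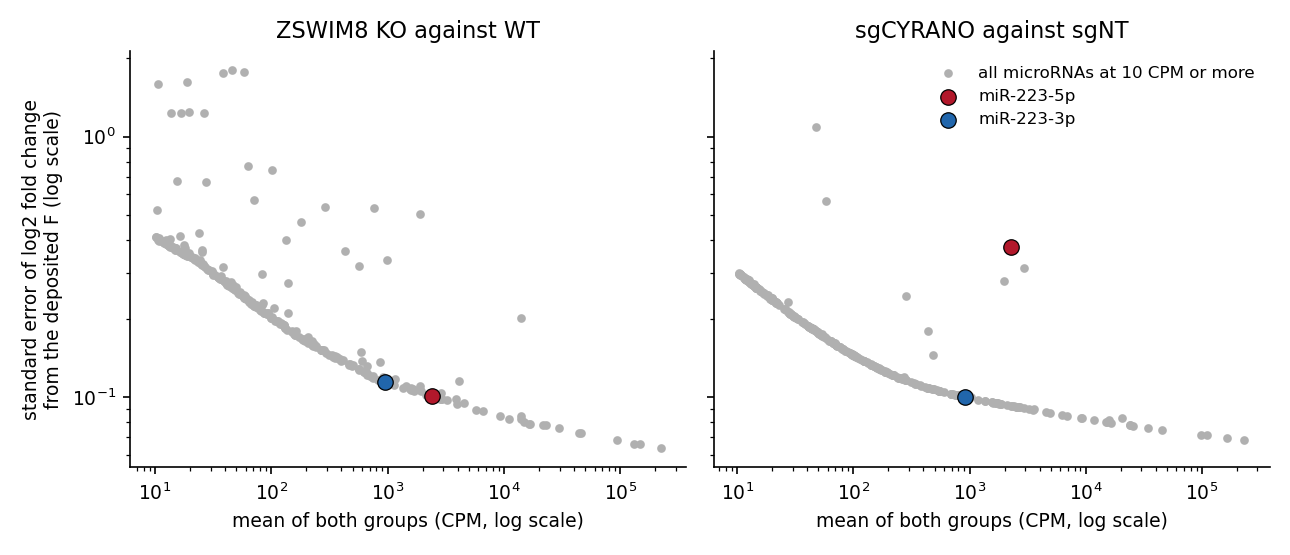
Standard error of the log2 fold change from the deposited F (log scale) against the mean of both groups in CPM (log scale), for microRNAs at 10 CPM or more. Most microRNAs lie on a falling curve, and so do both miR-223 strands in ZSWIM8 KO against WT. In sgCYRANO against sgNT miR-223-5p stands above the curve at 0.38, while miR-223-3p lies on it at 0.10.

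The arm difference in sgCYRANO over sgNT was 0.31 ± 0.43 (normal test, adjusted p = 0.966 over 180 hairpins), with an interval from -0.72 to 1.34 on the implied degrees of freedom. By this normal test 0 of 180 hairpins passed, or 0%, and 6 had an unadjusted p under 0.05. The 3p share of the hairpin was 26.9% in sgCYRANO and 31.3% in sgNT, and both strands together had 3399 CPM in sgCYRANO and 2963 CPM in sgNT.

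The comparisons share no library, so their fold changes could be set against each other. The log2 fold change of miR-223-5p in ZSWIM8 KO over WT minus that in sgCYRANO over sgNT was -0.67 ± 0.43 (normal test, adjusted p = 0.271 over 294 microRNAs at 10 CPM or more in both tables). For miR-223-3p the difference was 0.32 ± 0.15 (normal test, adjusted p = 0.128), and 0.17 with each table centred on its median (adjusted p = 0.501). Neither strand passed, while 58 of the 294 microRNAs did, or 19.7%. The arm differences of both comparisons differed by -0.99 ± 0.45 (normal test, adjusted p = 0.168 over 62 hairpins), and by this test 0 of 62 passed, or 0%, with 13 at an unadjusted p under 0.05. The fall of miR-223-5p and the arm difference with ZSWIM8 loss were therefore not shown to differ from the values with the CYRANO guide.

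The control groups also had different group means in this hairpin. Values of single libraries were not available, so the levels, scaled to equal totals in each group, are set side by side without a test. In descending order miR-223-5p had 2712 CPM in WT, 2486 CPM in sgCYRANO, 2080 CPM in ZSWIM8 KO and 2037 CPM in sgNT. In the same way miR-223-3p had 1039 CPM in ZSWIM8 KO, 926.1 CPM in sgNT, 913.5 CPM in sgCYRANO and 844.3 CPM in WT. Within the tables, the difference of ZSWIM8 KO from WT in miR-223-5p passed the test, and the other 3 differences did not. The sgNT controls thus had a 5p level close to that of ZSWIM8 KO, and their 3p share of 31.3% was nearer to the 33.3% of ZSWIM8 KO than to the 23.7% of WT. In sgCYRANO over sgNT the implied standard deviation of miR-223-5p between libraries was 0.46 on the log2 scale. The sgNT level and share are therefore uncertain.

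The microRNAs whose pair of log2 fold changes lay closest to that of each strand were found among 293 others at 10 CPM or more in both tables, by Euclidean distance. For miR-223-5p they were miR-30e-3p (distance 0.04), miR-128-1-5p, miR-1273h-5p, miR-942-5p and miR-26a-2-3p (0.11). miR-30e-3p was of similar abundance, with 2435 CPM in ZSWIM8 KO and 3152 CPM in WT, and 3191 CPM in sgCYRANO and 2679 CPM in sgNT. In the authors' deposited tables it fell by 0.37 on the log2 scale in ZSWIM8 KO (adjusted p = 0.0042) and had 0.25 in sgCYRANO (adjusted p = 0.984). Its implied degrees of freedom in the sgCYRANO table were also 4.0, with a standard error of 0.31 from F. Its sequence is shown because of this likeness, and its seed differs from both seeds of miR-223.
miR-30e-3p: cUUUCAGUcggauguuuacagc
For miR-223-3p the closest were miR-22-3p (distance 0.02), miR-424-5p, miR-194-5p, miR-192-5p and miR-93-5p (0.05). miR-22-3p rose in ZSWIM8 KO over WT by 0.28 on the log2 scale in the authors' deposited table (adjusted p = 0.0470), the other 4 did not pass, and 0 of the 5 passed in sgCYRANO over sgNT. When 100 CPM was asked for in both tables, 2 of the 5 strands named for miR-223-5p and 4 of the 5 named for miR-223-3p were again among the closest 5. Each pattern is only a pair of values.

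**Figure D4:**
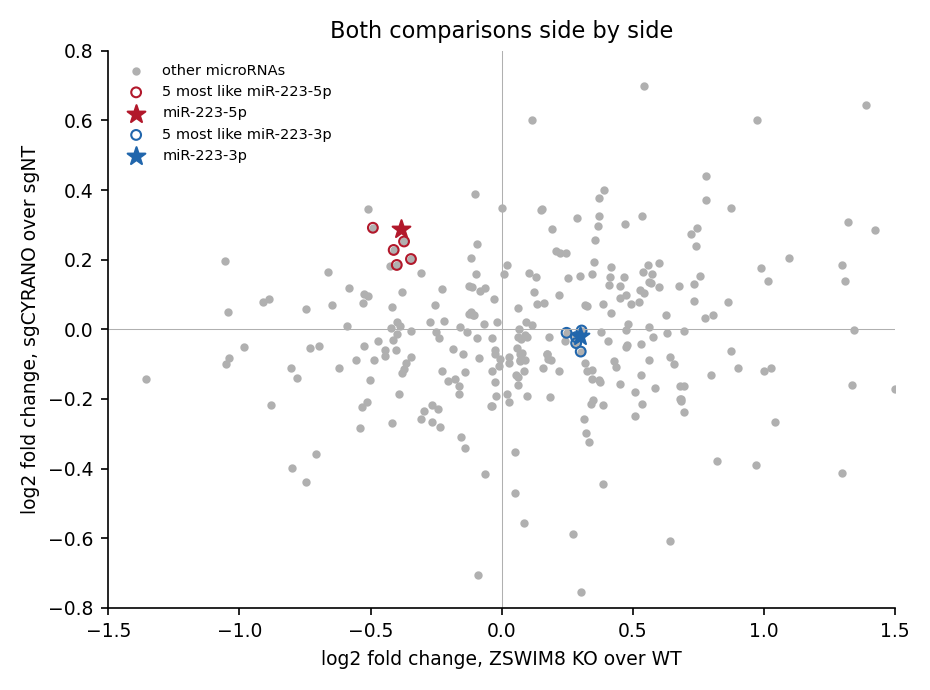
Log2 fold change in sgCYRANO over sgNT against that in ZSWIM8 KO over WT for microRNAs at 10 CPM or more in both tables; miR-7-5p is left out and 10 further microRNAs lie outside the axes. Stars mark the miR-223 strands and open circles the 5 microRNAs closest to each. miR-223-5p lies at -0.38 and 0.29, and miR-223-3p at 0.30 and -0.02.

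Other myeloid microRNAs gave the setting. Of the 10 strands listed as myeloid, 8 were in the ZSWIM8 KO table, of which 2 fell, 0 rose and 6 did not pass, beside 5.18% lower and 4.72% higher calls over all 868. Of the 2, 1 is miR-223-5p itself. Besides miR-223-5p the fall was of miR-21-5p, which is also abundant in many other cell types, at -0.38 ± 0.07 in the authors' deposited table. The median log2 fold change of the list was -0.09, beside 0.08 over all 868 microRNAs. miR-146a-5p, which restrains inflammatory signalling, had 248.5 CPM in ZSWIM8 KO and 233.1 CPM in WT and did not pass. In sgCYRANO over sgNT 9 of the 10 strands were in the table and 0 passed, with a median of -0.00 beside 0.01 over all 837. miR-155-5p, induced in activated leukocytes, was under 1 CPM in sgCYRANO and sgNT.

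All 8 listed erythroid strands were in both tables. Their summed level was 17142 CPM in ZSWIM8 KO and 17788 CPM in WT. The most abundant, miR-486-5p, had 13387 CPM in ZSWIM8 KO and 14449 CPM in WT, and 12031 CPM in sgCYRANO and 11701 CPM in sgNT. The counts that follow stand beside 9.91% called over all 868 microRNAs in ZSWIM8 KO over WT and 0.119% over all 837 in sgCYRANO over sgNT. In ZSWIM8 KO 1 erythroid strand fell and 7 did not pass. The fall was of miR-486-3p, at -0.40 ± 0.14 by the authors' deposited table. Of the listed megakaryocytic strands 8 of 9 were in that table and 2 fell, miR-99a-5p at -1.36 ± 0.29 and miR-125b-5p at -2.09 ± 0.53 in the authors' deposited table. Of 4 lymphoid strands 2 were in it and 1 rose, miR-342-3p, at 0.80 ± 0.19 in the authors' deposited table. Of 10 non-haematopoietic markers 6 were in each table and 0 passed in either, with a sum of 1537 CPM in ZSWIM8 KO and 658.4 CPM in WT, and 1069 CPM in sgCYRANO and 874.7 CPM in sgNT, most of it miR-9-5p. In sgCYRANO over sgNT 0 strands of the erythroid, megakaryocytic and lymphoid lists passed. In ZSWIM8 KO over WT the median log2 fold change was -0.03 over the erythroid strands, -0.65 over the megakaryocytic, 0.74 over the lymphoid and 1.02 over the non-haematopoietic ones, beside 0.08 over all. Of 5 microRNAs listed as substrates of target-directed decay 4 were in each table. In ZSWIM8 KO 1 of them rose, miR-7-5p. The falls were of miR-221-3p at -4.76 ± 0.48 and miR-222-3p at -4.88 ± 0.58 in the authors' deposited table, and the list's median was -2.16. The 5p strands of those hairpins, which are not on the list, fell as well. In the authors' deposited table miR-221-5p was at -4.07 ± 0.63, from 15.5 CPM in WT, and miR-222-5p at -4.34 ± 1.37, from only 2.41 CPM in WT. Both strands of these hairpins thus fell, and the cause was not tested. In sgCYRANO over sgNT only miR-7-5p of the 4 listed strands passed, and the median was -0.17. The part of these shifts in the miR-223 values was not tested.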

How the data were processed

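Small RNA of 12 K562 libraries was sequenced from miRNeasy total RNA with an NEB Next kit, per the labels' protocols. As tools, edgeR, featureCounts, STAR, FastQC 0.11.2 and bcl2fastq are listed in the submitters' processing notes, with hg19 as the build and no roles given. The deposited tables hold 868 and 837 microRNAs. Per the file headers they hold a log2 fold change, a mean log2 CPM, an F statistic (used as a score), and unadjusted and adjusted p-values from the authors' test.

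Benjamini-Hochberg adjustment of the deposited p-values over all rows returned the deposited adjusted ones to within 1.09e-06. Group means were recovered with prior counts of 2 (mean log2 CPM) and 0.125 (log2 fold change), and summed to 1000000 CPM in all 4 groups. The test therefore saw values scaled to equal totals. Library totals were read from the smallest steps of group means under 1 CPM, and 3 steps per group accounted for all 208, 241, 227 and 220 such values (ZSWIM8 KO, WT, sgCYRANO, sgNT) within 0.0015 CPM. They cannot be tied to replicate numbers.

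A standard error is the absolute log2 fold change divided by the normal quantile of its p-value, or by the root of F where stated. Arms were paired by name stem. Differences used a normal reference, two-sided, with Benjamini-Hochberg adjustment (Python 3.11.15, scipy 1.17.1), and the procedure was tested on simulated data. The simulated errors were independent and normal, so this could not check the independence of both strands or the normal reference. With errors as in ZSWIM8 KO over WT 54.3% of changed hairpins were called, and 96.3% of intervals held the true value. With errors as in sgCYRANO over sgNT these were 60% and 92.8%. The strands and lists were chosen with earlier results of these data known. Named microRNAs are those closest in pattern or abundance, hairpins with both arms called or with an arm difference, and called list members. miR-146a-5p, miR-155-5p, miR-486-5p, miR-221-5p and miR-222-5p were named after their values were seen. Sequences are from RefSeq GRCh38.p14, and the fold is from ViennaRNA 2.7.2.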

Additional observations from a re-analysis of the deposited data

How the results depend on the processing

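Of 47 tested log2 values under alternatives 43 kept their direction and their side of the threshold, 9 of 12 counts stayed within 1.5 times, and 4 of 4 strand shares stayed within their counting interval. The only alternative for the shares left out the prior count, which could hardly move them at these levels, so their agreement says little. With F read on 4 degrees of freedom the log2 fold change of miR-223-5p in ZSWIM8 KO over WT, -0.38, no longer passed (adjusted p = 0.323, range over its alternatives 7.94e-06 to 0.323), and the calls of that table were 3 in place of 86. With F errors on 4 degrees of freedom per strand, an alternative added after the data were seen, the arm difference of -0.68 no longer passed (adjusted p = 0.201, range 9.58e-05 to 0.201). In both cases fewer degrees of freedom are the alternative's own construction. With microRNAs under 10 CPM left out, miR-223-3p at 0.30 passed (adjusted p = 0.0333, range 0.0333 to 0.553), with fewer microRNAs tested, and the table's calls were 62 higher and 40 lower. Centred on the median, miR-223-3p in sgCYRANO over sgNT turned from -0.02 to 0.0024. With both tables adjusted together the sgCYRANO calls were 5 in place of 1. Values of single libraries were not in the tables used, so leaving out replicates was not run. No paired analysis was possible because the columns carry no replicate. Read totals were 7060000 in ZSWIM8 KO and 3810000 in WT, and values at equal depth were not computed.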

Other observations

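In sgCYRANO over sgNT, 3 microRNAs at 100 CPM or more had implied degrees of freedom within 0.5 of 4, miR-223-5p, miR-30e-3p and miR-1307-3p. miR-1307-3p had 2195 CPM in sgCYRANO and 1757 CPM in sgNT, with a log2 fold change of 0.32 and a standard error of 0.28 from F in the authors' deposited table. All 3 lay between 1757 and 3191 CPM, had positive log2 fold changes between 0.25 and 0.32, and did not pass. In the ZSWIM8 KO table, where the lowest implied value at 100 CPM or more was 4.33, the 9 microRNAs within 0.5 of it were others, among them the erythroid strands miR-451a, miR-144-3p, miR-144-5p and miR-486-5p.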
